A study of Rattus norvegicus with 12 samples.

Results

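Gene expression in the striatum was compared between 4 rats labelled non-addicted and 4 rats killed 12 h after their last drug session (MA12). By their labels, both groups followed 16 days of methamphetamine (MA) self-administration. The genes described are those with a mean count above 4 over these 8 libraries, which held for 12657 of the 17337 gene symbols in the count table. Differences are given as log2FC, non-addicted minus MA12, so a positive value means a higher level in the non-addicted rats. Each library came from the whole striatum of 1 male Sprague–Dawley rat, and the series as used here also holds 4 rats killed at 24 h (MA24). The labels give every rat the genotype WT, MA as the treatment and the same batch date. By these labels all 8 rats compared had worked for MA, and neither group is a drug-free control. The paper describes a saline group, an MA group and groups at 12 h and 24 h. It does not say how the non-addicted rats relate to them. The labels do not say by what measure a rat was called non-addicted or how long after its last session it was killed, and the study's methods do not describe this group. For the MA rats it does describe, only animals with steady lever pressing were kept. The rat numbers end in N for MA12 rats 4N and 7N and for none of the non-addicted rats, and the meaning of N is not given.

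The striatum is the main input station of the basal ganglia, and most of its neurons are GABAergic projection neurons that express dopamine D1 or D2 receptors. Like other tissues it has a circadian clock, in which Arntl (Bmal1) and Clock drive *Per*, *Cry*, *Nr1d* and *Ciart* genes whose products then repress them, and it responds to adrenal glucocorticoids, which act through the receptors encoded by *Nr3c1* and *Nr3c2*. Its capillaries consist of endothelial cells sealed by tight junctions and wrapped by mural cells, the pericytes and smooth muscle cells that hold the vessel wall and set its width.

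Clock genes are known to be controlled through short motifs in their promoters, so the promoters of the genes called below were searched for such motifs. Promoters of 300 bases, from 250 before to 50 after the annotated start, were taken from RefSeq for the GRCr8 build, and 19 of the 27 genes called below had an entry. Those without an entry included *Cald1*, *Egfl7*, *Kcns2*, *Mcam*, *Mmp14*, *Tagln* and *Zbtb16*. Each promoter was searched on both strands for the E-box CACGTG, which Arntl and Clock bind, its variant the E'-box CACGTT, the D-box TTATGTAA or TTACGTAA bound by Dbp and Tef, the half-site AGGTCA of the element that ROR and Nr1d proteins bind (RORE), and the metal response element (MRE) core TGCACNC or TGCGCNC. Over all 33469 RefSeq promoters of this length, 6.42% held an E-box, 4.83% an E'-box, 1.01% a D-box, 16.2% the RORE half-site and 24.2% an MRE core. The 4 promoters printed belong to clock genes that were called and to the metallothionein *Mt1a* (RefSeq *Mt1*), and capitals mark the matches. *Ciart* lies on the minus strand at chr2:186112197-186112496, *Per2* on the minus strand at chr9:99496944-99497243, *Arntl* (RefSeq *Bmal1*) on the plus strand at chr1:176766078-176766377 and *Mt1a* on the minus strand at chr19:10832926-10833225, each written 5′ to 3′ along its gene.
Ciart, 3 E-boxes: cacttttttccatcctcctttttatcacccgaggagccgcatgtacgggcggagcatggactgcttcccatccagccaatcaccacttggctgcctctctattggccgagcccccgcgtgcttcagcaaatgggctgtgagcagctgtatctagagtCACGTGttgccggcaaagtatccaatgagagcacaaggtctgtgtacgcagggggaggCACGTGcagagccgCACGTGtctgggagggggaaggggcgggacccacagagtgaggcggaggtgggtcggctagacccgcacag
Per2, a D-box and then an E'-box: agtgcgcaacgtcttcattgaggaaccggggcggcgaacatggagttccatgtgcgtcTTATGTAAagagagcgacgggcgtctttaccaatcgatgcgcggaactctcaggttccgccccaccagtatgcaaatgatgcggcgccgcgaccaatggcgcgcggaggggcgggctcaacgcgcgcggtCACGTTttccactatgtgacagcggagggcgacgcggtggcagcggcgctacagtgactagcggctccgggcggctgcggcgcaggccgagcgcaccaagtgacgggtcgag
Arntl, 1 RORE half-site: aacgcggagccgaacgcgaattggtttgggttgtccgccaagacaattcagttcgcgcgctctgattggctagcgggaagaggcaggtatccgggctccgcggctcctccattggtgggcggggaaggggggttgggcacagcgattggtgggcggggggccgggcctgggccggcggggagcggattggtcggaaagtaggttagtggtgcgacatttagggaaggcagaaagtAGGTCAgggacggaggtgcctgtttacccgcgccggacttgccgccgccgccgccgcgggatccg
Mt1a, 6 MRE cores: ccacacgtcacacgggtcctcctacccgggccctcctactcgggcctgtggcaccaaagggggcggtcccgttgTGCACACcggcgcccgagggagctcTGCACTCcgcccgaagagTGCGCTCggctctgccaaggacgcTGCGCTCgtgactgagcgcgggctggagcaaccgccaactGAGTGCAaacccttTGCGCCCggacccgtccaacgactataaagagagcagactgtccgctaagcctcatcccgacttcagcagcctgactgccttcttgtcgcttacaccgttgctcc

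The *Ciart* window held 3 E-boxes, starting at -93, -35 and -21 from the annotated start. No other called gene with a promoter entry had an E-box, and the called genes without an entry were not searched. The *Per2* window held a D-box at -192 and an E'-box at -62, and also 2 MRE cores that are left in lower case. An E'-box was also found for *Lpin3* and *Tgfbr2*, an MRE core for *P4ha2* and the RORE half-site for *Trank1*. *Per3* had none of the 5 motifs in its window. No matches overlapped in the printed promoters, and a match describes the letters only.

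Between 17908962 and 23718399 reads per rat were counted on genes, and 13276 to 13628 symbols had at least 1 count. The share of the 10 most counted genes was 4.49% to 5.97%. Within a group, each of the 12 pairs of rats differed by more than counting error (chi-square divided by its degrees of freedom, 12.1 to 28), so each rat counted as 1 replicate. The labels number the rats but do not say whether cage mates or littermates were among them. On the first principal component (25.3% of the variance), MA12 rats 4N and 7N and non-addicted rat 13 lay on one side and the other 5 rats on the other, so this component did not separate the groups. Levels are log2 counts scaled to library size (CPM) with TMM scaling and a prior count of 2.

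After the 1898 genes with the lowest variance had been removed, 10759 genes were tested with edgeR's quasi-likelihood test, and genes were called differentially expressed (DEGs) if the p adjusted by Benjamini-Hochberg was under 0.05 and the fold change (FC) reached 1.5. There were 27 DEGs, 0.251% of the genes tested, of which 11 were higher (0.102%) and 16 lower (0.149%) in the non-addicted rats. The higher DEGs were *Zbtb16*, the clock genes *Per2*, *Ciart* and *Per3*, the kinases *Camk1g* and *Ltk*, *Mt1a*, *Lpin3*, *Trank1*, *Mthfd1l* and *P4ha2*. The lower DEGs included *Cym*, the vascular and contractile genes *Mmp14*, *Abcc9*, *Kdr*, *Tgfbr2*, *Mcam*, *Tagln*, *Acta2*, *Atp13a5*, *Cxcl12*, *Cald1* and *Egfl7*, the potassium channel gene *Kcns2*, the opioid precursor *Pdyn* and the clock activator *Arntl*. The name vascular and contractile is descriptive only, as 4 of the 16 lower DEGs were on the endothelial, mural or fibroblast lists used below. The lower DEGs other than *Cym* had log2FC values from -1.27 to -0.60, and the lowest log2FC of a higher DEG was 0.59. For 26 of the 27 the levels of the 4 non-addicted rats lay apart from those of the 4 MA12 rats, and *Ciart* was the exception. Because the DEGs were called from these same rats, such separation is largely built in. Over all 12657 genes, 3.03% lay wholly above and 3.48% wholly below MA12, the background for such counts in the gene lists below. In a fit without the variance filter, 5.29% were positive and 6.73% negative at an unadjusted p below 0.05, the background for counts by that p. In all, 6081 of the 12657 genes had a positive and 6576 a negative log2FC, with a median of -0.01.

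**Figure D1:**
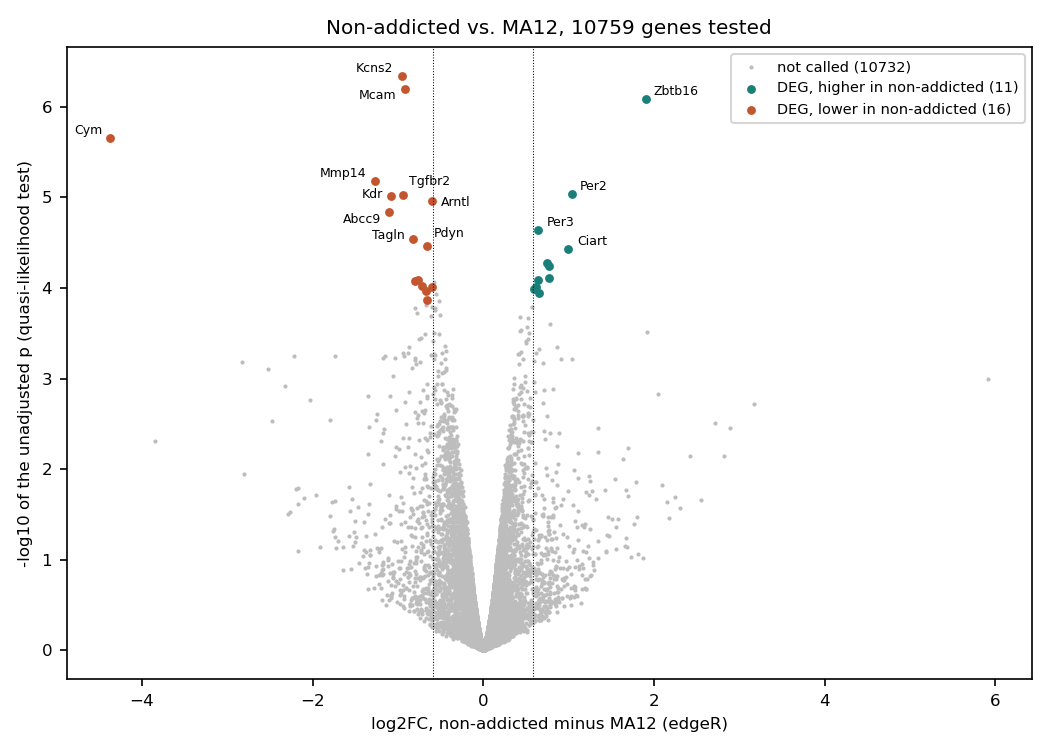
Volcano plot of the 10759 genes tested, with log2FC (non-addicted minus MA12) on the x axis and -log10 of the unadjusted p of the quasi-likelihood test on the y axis; dotted lines mark an FC of 1.5, and the 14 DEGs with the smallest p are named. The 16 lower DEGs reach from -0.60 to -4.37 (*Cym*) and the 11 higher DEGs from 0.59 to 1.90 (*Zbtb16*).

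The number of DEGs depended strongly on the filter and on single rats. Without the variance filter 5 of 12657 genes (0.0395%) were DEGs, namely *Kcns2*, *Mcam*, *Zbtb16*, *Cym* and *Arntl*, while the other 22 had adjusted p values from 0.0643 to 0.0956 in that fit (edgeR). With one rat left out the count ranged from 8 (without non-addicted rat 12) to 93 (without MA12 rat 7N), and it was 14 without non-addicted rat 11, 84 without non-addicted rat 13, 13 without MA12 rat 21, 17 without MA12 rat 31 and 11 without MA12 rat 4N. The count was 63 against only the MA12 rats numbered without N, 130 against only those numbered with N and 10 when the kind of number entered as a covariate. Those 10 were *Kcns2*, *Mcam*, *Zbtb16*, *Cym*, *Abcc9*, *Kdr*, *Mmp14*, *Tgfbr2*, *Tagln* and *Ciart*, and the other DEGs had adjusted p values from 0.0521 to 0.166 in that fit (edgeR). *Kcns2*, *Mcam*, *Zbtb16* and *Cym* were called in every alternative run on them, and *Abcc9*, *Kdr*, *Mmp14* and *Per2* in each of the 8 fits with one rat left out. Of the other DEGs, 14 were called in at most 3 of the 8 fits, none of them without non-addicted rats 11 or 12 or MA12 rat 4N (adjusted p from 0.0548 to 0.167, edgeR) and all 14 without non-addicted rat 13. At the edge of the threshold, *Lpin3* and *Cald1* lay just inside (adjusted p = 0.0447 and 0.0446), and *Rffl*, *Megf10* and *Serinc5* just outside (0.0504, 0.0513 and 0.0513, edgeR).

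*Zbtb16*, which encodes a zinc finger repressor (PLZF) known to be induced by glucocorticoids, had the highest log2FC of the 27 DEGs. Its level was 2.99, 2.82, 3.57 and 4.15 log2 CPM in non-addicted rats 9, 11, 12 and 13 and 1.61, 1.76, 1.42 and 1.64 in MA12 rats 21, 31, 4N and 7N. The MA12 rats lay close together and the non-addicted rats were spread over more than 1 log2 unit above them. The means were 3.38 ± 0.60 and 1.61 ± 0.14 (SD, n = 4 rats each), a 3.73-fold difference (log2FC 1.90, SE 0.26, adjusted p = 0.00292, edgeR). The raw counts were 141 to 335 in the non-addicted and 53 to 78 in the MA12 rats.

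*Zbtb16* and *Mt1a* were the DEGs among 35 measured genes of a list of glucocorticoid-induced genes. At an unadjusted p below 0.05 in the fit without the variance filter, 10 of the 35 had a positive and 0 a negative log2FC, where 5.29% of all genes were positive and 6.73% negative by this measure. Over the list 27 log2FC values were positive, and the median was 0.17 against -0.01 over all genes. In 5 of the 35 every non-addicted rat lay above every MA12 rat, while 3.03% of all genes were above and 3.48% below in this way.

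*Mt1a*, a metal-binding protein gene switched on by zinc and by glucocorticoids, had a level of 5.33, 4.94, 4.94 and 4.76 in non-addicted rats 9, 11, 12 and 13 and of 4.19, 4.59, 4.00 and 4.22 in MA12 rats 21, 31, 4N and 7N. The lowest non-addicted rat was 13 and the highest MA12 rat was 31, and they stayed apart. The log2FC was 0.75 (SE 0.14, adjusted p = 0.0383, edgeR), and it missed the threshold without non-addicted rats 9, 11 or 12 and without MA12 rats 21 or 4N (adjusted p = 0.0548 to 0.0946). *Hif3a*, a hypoxia-inducible factor subunit also known as glucocorticoid-responsive, had few counts, 34, 51, 33 and 63 in the non-addicted rats against 19, 8, 9 and 14 in MA12. Its log2FC of 1.92 was as large as that of *Zbtb16* but did not pass the test (adjusted p = 0.0699, edgeR). *Angptl4*, an inhibitor of lipoprotein lipase, had 0.71 (0.118), *Tsc22d3*, which encodes the glucocorticoid-induced leucine zipper, 0.52 (0.141) and *Sesn1*, a stress-responsive regulator of growth signalling, 0.23 (0.33), all short of the threshold. The other metallothionein gene on the list, *Mt2A*, had a log2FC of 0.06 in the fit without the variance filter. In that fit *Klf9*, *Errfi1* and *Dusp1*, also on the list, had 0.08, 0.06 and -0.18. The list score, the mean of log2 CPM centred per gene, was 0.34 and 0.37 in non-addicted rats 11 and 13 but -0.14 and -0.03 in rats 9 and 12, and it ran from -0.28 to 0.11 in MA12, so the groups overlapped.

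The receptors themselves gave no DEG. *Nr3c1*, the glucocorticoid receptor gene, had a log2FC of -0.12 (adjusted p = 0.653) and *Nr3c2*, the mineralocorticoid receptor gene, of -0.17 (0.538, edgeR). Among 14 corticosteroid receptor and cofactor genes, 1 had a positive and 3 a negative log2FC at an unadjusted p below 0.05, with a median of -0.12. *Hsd11b1*, whose enzyme regenerates active glucocorticoid inside cells, was below MA12 in all non-addicted rats (4.74 to 5.18 against 5.20 to 5.48 log2 CPM), with a log2FC of -0.39 that did not pass (adjusted p = 0.161).

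The clock repressor genes *Per2*, *Per3* and *Ciart* were higher and the activator *Arntl* was lower in the non-addicted rats than in MA12. *Per2*, whose product represses Arntl and Clock, had levels of 5.49, 6.46, 5.93 and 5.95 in non-addicted rats 9, 11, 12 and 13 and of 5.17, 4.75, 4.57 and 5.25 in MA12 rats 21, 31, 4N and 7N. Non-addicted rat 9 and MA12 rat 7N came closest to each other without crossing. The means were 5.95 ± 0.40 and 4.94 ± 0.33 (SD, n = 4 rats each), a 2.05-fold difference (log2FC 1.04, SE 0.17, adjusted p = 0.0128, edgeR). *Per2* was called in each fit with one rat left out but not once number kind was added as a covariate (adjusted p = 0.0676, edgeR).

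*Per3*, a further *Per* gene, was between 5.63 and 5.99 in the non-addicted rats and between 5.0 and 5.41 in MA12 (log2FC 0.64, SE 0.11, adjusted p = 0.0225, edgeR), and missed the threshold without non-addicted rat 12 or MA12 rats 21 or 4N (0.0564 to 0.0794). *Ciart*, the gene with the 3 E-boxes printed above and a repressor of Arntl and Clock, had levels of 5.12, 4.22, 4.96 and 5.20 in non-addicted rats 9, 11, 12 and 13 and of 3.57, 3.81, 4.06 and 4.22 in MA12 rats 21, 31, 4N and 7N. Non-addicted rat 11, the rat with the highest *Per2*, had the lowest *Ciart* of its group and lay level with MA12 rat 7N. The log2FC of *Ciart* was 1.0 (SE 0.19, adjusted p = 0.0283, edgeR). It missed the threshold without non-addicted rats 9 or 12 or MA12 rats 21 or 31 (adjusted p = 0.0504 to 0.0735).

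*Arntl*, which encodes the clock's activator Bmal1, had levels of 5.32, 5.24, 5.29 and 5.17 in non-addicted rats 9, 11, 12 and 13 and of 5.86, 5.64, 5.92 and 5.98 in MA12 rats 21, 31, 4N and 7N. The 4 non-addicted rats lay close together and all MA12 rats above them. The means were 5.26 ± 0.07 and 5.85 ± 0.15, and the log2FC was -0.60 (SE 0.0998, adjusted p = 0.0132, edgeR). Its fold of 1.51 was near the limit. The call was lost without non-addicted rat 13 (log2FC -0.55) or MA12 rat 7N (-0.53), and by the adjusted p without non-addicted rat 12 (0.0503) or MA12 rat 4N (0.0539). It was also lost with number kind as a covariate (log2FC -0.49, adjusted p = 0.0965) and against only the MA12 rats numbered without N (-0.48, 0.0885, edgeR).

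Of 8 measured evening-arm clock genes, so named because their mRNA peaks around the end of the day in rodent tissues, 3 were DEGs, 7 were positive at an unadjusted p below 0.05 and 4 did not overlap, with a median log2FC of 0.50. Over all genes, 0.102% of those tested were higher DEGs, 5.29% were positive at that p and 3.03% lay above without overlap. The member not at that p was *Nr1d1*, with a log2FC of 0.05 in the fit without the variance filter. *Dbp*, which binds D-boxes, had 0.49 (adjusted p = 0.112) and *Nr1d2*, which represses *Arntl*, 0.35 (0.141, edgeR), and neither passed although all non-addicted rats were above MA12 for both. The score of this list was 0.17 to 0.37 in the non-addicted rats and -0.35 to -0.09 in MA12. Among 6 morning-arm genes *Arntl* was the DEG, *Cry1* had a log2FC of 0.35 (adjusted p = 0.257), and the median was -0.12. Among 8 other clock-related genes there was no DEG, 4 were positive and 1 negative at an unadjusted p below 0.05, and the median was 0.06. *Per1* is on both the evening-arm and the glucocorticoid-induced list. The hour at which the non-addicted rats were killed is not given. Time of day, time since the last session and the label therefore cannot be told apart, for these genes or the glucocorticoid-induced genes.

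**Figure D2:**
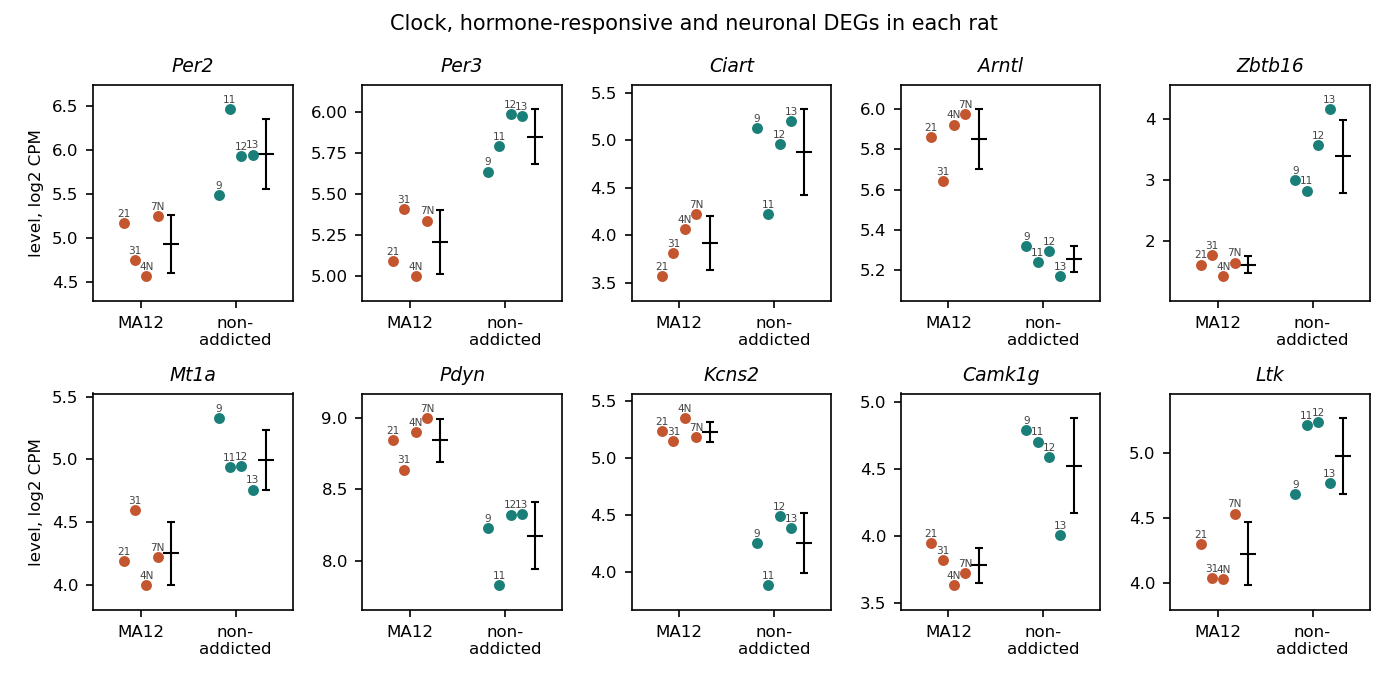
Levels of 10 DEGs in each of the 8 rats, in log2 CPM on the y axis of each panel with its own range, with MA12 in orange, non-addicted in green, rat numbers above the points, and the mean ± SD beside each group. The groups stay apart in each panel except that of *Ciart*, where non-addicted rat 11 sits level with MA12 rat 7N.

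Outside the clock and glucocorticoid lists, hormone-related genes gave no DEG. For the thyroid hormone axis, 18 genes had a median log2FC of -0.05, with 2 positive and 2 negative at an unadjusted p below 0.05. *Slco1c1*, the transporter that carries thyroxine across brain capillaries, was below MA12 in each non-addicted rat (6.52 to 6.72 against 6.87 to 7.30 log2 CPM, log2FC -0.44, adjusted p = 0.0796, edgeR). *Hr*, a classical thyroid hormone target, had -0.44 (0.229). *Thrb*, a thyroid hormone receptor gene, had 0.09 (0.794), and *Thra*, the other receptor gene, was removed by the variance filter and had 0.08 without it (0.744). The 11 sex steroid genes had a median of -0.35 with 3 negative at an unadjusted p below 0.05, among them the estrogen-related receptor *Esrrg* (-0.41, 0.288). The medians were -0.06 over 11 retinoid genes, with none at that p, and 0.08 over 19 genes of the insulin, insulin-like growth factor and leptin axis, with 1 in each direction.

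Of the 16 lower DEGs, 4 were on the endothelial, mural or fibroblast lists. *Mcam* (CD146), an adhesion molecule of endothelial and mural cells that is on none of them, had the smallest p of the vascular and contractile genes named above. Its level was 5.40, 5.33, 5.14 and 5.27 in non-addicted rats 9, 11, 12 and 13 and 6.32, 6.27, 6.42 and 5.75 in MA12 rats 21, 31, 4N and 7N. MA12 rat 7N was the lowest of its group and still above each non-addicted rat. The means were 5.28 ± 0.11 and 6.19 ± 0.30 (SD, n = 4 rats each), so MA12 was 1.89-fold above (log2FC -0.92, SE 0.12, adjusted p = 0.00292, edgeR).

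*Kdr*, the main receptor of vascular endothelial growth factor (VEGF) on endothelial cells, had levels of 3.06, 3.18, 3.61 and 3.67 in non-addicted rats 9, 11, 12 and 13 and of 4.38, 4.65, 4.81 and 3.97 in MA12 rats 21, 31, 4N and 7N. The gap between the groups was narrow, between non-addicted rat 13 and MA12 rat 7N. The log2FC was -1.08 (SE 0.18, adjusted p = 0.0128, edgeR). *Egfl7*, a matrix protein secreted by endothelium, was between 4.37 and 4.85 in the non-addicted and between 5.0 and 5.43 in the MA12 rats (log2FC -0.60, adjusted p = 0.0439).

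Of 16 endothelial markers measured, *Kdr* was the DEG, and 7 were negative and 0 positive at an unadjusted p below 0.05. The groups did not overlap for 2, and the median log2FC was -0.33. Over all genes, 0.149% of those tested were lower DEGs, 6.73% were negative at that p and 3.48% lay below without overlap. *Tek*, the angiopoietin receptor, had -0.53 (adjusted p = 0.0932), the tight junction gene *Cldn5* -0.43 (0.131) and the VEGF receptor *Flt1* -0.35 (0.258, edgeR). Other markers on the list were near 0, with *Pecam1* at -0.07, *Mfsd2a* at -0.02 and *Slc2a1* at 0.01 in the fit without the variance filter. Of 19 genes of VEGF and angiopoietin signalling, 1 was positive and 6 negative by the same measure, with a median of -0.29. The positive gene was the ligand *Vegfa*, at 7.42 to 7.55 in the non-addicted and 7.21 to 7.35 in the MA12 rats (log2FC 0.21, adjusted p = 0.357). The receptor *Aplnr* had few counts, 20 to 33 against 31 to 90 (-1.04, 0.2).

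Mural cell genes stood lowest of the cell type lists by their median. *Abcc9*, the sulfonylurea receptor subunit of the pericyte potassium channel that ATP closes, had levels of 3.23, 3.55, 3.92 and 3.85 in non-addicted rats 9, 11, 12 and 13 and of 4.77, 5.07, 4.96 and 4.05 in MA12 rats 21, 31, 4N and 7N. MA12 rat 7N again came closest to the non-addicted rats. The log2FC was -1.10 (SE 0.19, adjusted p = 0.0157, edgeR), and *Kcnj8*, the pore subunit of the same channel, had -0.69 (0.255). The 4 subunit genes of such channels had a median of -0.33 but were split. The remaining members, *Abcc8* and *Kcnj11*, had 0.12 and 0.04 in the fit without the variance filter. The contractile genes *Tagln* (transgelin, log2FC -0.83, adjusted p = 0.0258), *Acta2* (smooth muscle actin, -0.81, 0.0436) and *Cald1* (caldesmon, -0.67, 0.0446) were also DEGs. *Tagln* was 3.38 to 3.94 against 4.41 to 4.92, *Acta2* 3.07 to 3.38 against 3.78 to 4.38 and *Cald1* 3.84 to 4.41 against 4.57 to 5.07 log2 CPM. *Tagln* missed the threshold without non-addicted rat 12 or MA12 rats 31 or 4N (adjusted p = 0.0539 to 0.0794).

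All 12 mural markers had a negative log2FC, 3 of them as DEGs, with a median of -0.63. At an unadjusted p below 0.05, 9 were negative, and 5 did not overlap. Over all genes, 0.149% of those tested were lower DEGs, 6.73% were negative at that p and 3.48% lay below without overlap. The pericyte receptor *Pdgfrb* (4.89 to 5.24 against 5.39 to 5.84 log2 CPM) had an adjusted p of 0.0447 but an FC under 1.5 (log2FC -0.56, edgeR). *Rgs5*, a regulator of G protein signalling in pericytes, had -0.89 (0.0796), and *Notch3*, the receptor that keeps smooth muscle identity, -0.74 (0.131). The score of this list was -0.52, -0.29, -0.23 and -0.17 in non-addicted rats 9, 11, 12 and 13 and 0.22, 0.56, 0.45 and -0.03 in MA12 rats 21, 31, 4N and 7N. The summed level of the 12 markers was 180 to 235 CPM in the non-addicted and 242 to 415 CPM in the MA12 rats, and that of the 16 endothelial markers 826 to 1159 and 1063 to 1238 CPM. In bulk tissue, fewer cells of a type and less RNA per cell cannot be told apart, and the part of vessel content in these DEGs was not tested.

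**Figure D3:**
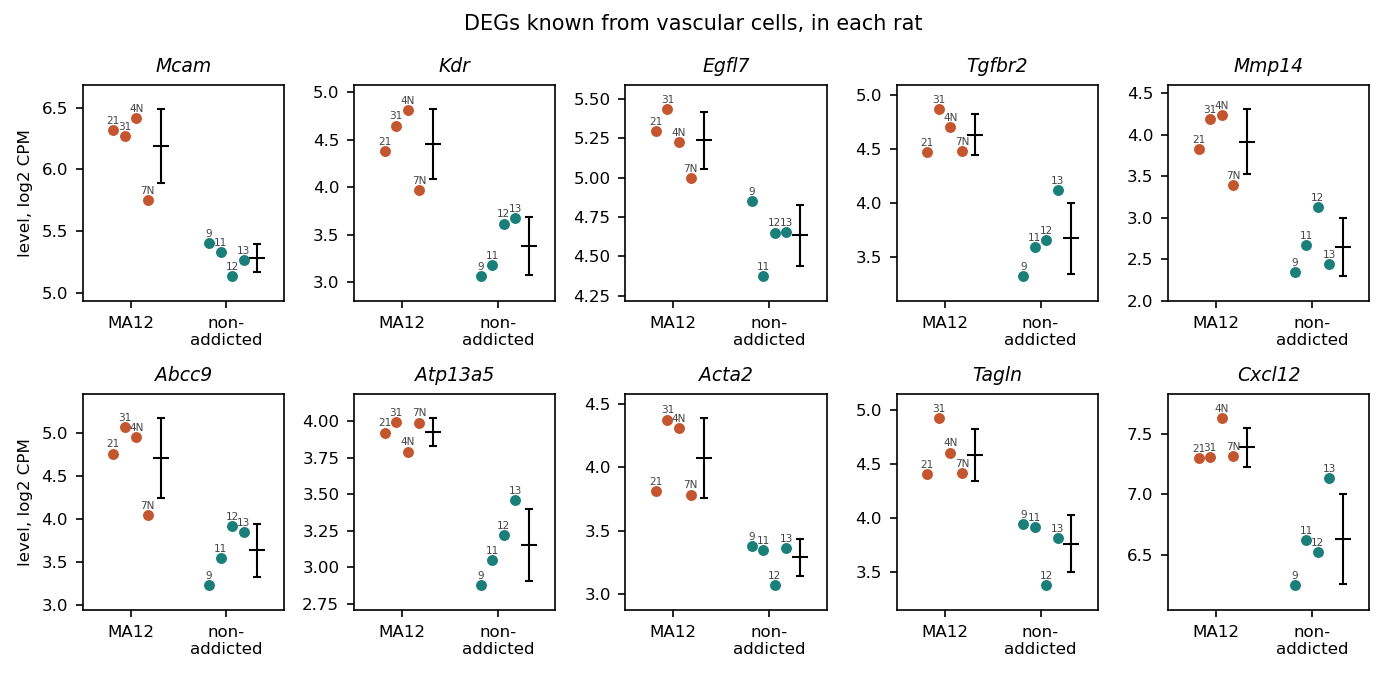
Levels of 10 of the lower DEGs in each rat, in log2 CPM on the y axis of each panel with its own range, drawn as in the plot of clock and neuronal genes. The 4 non-addicted rats lie below the 4 MA12 rats in each panel, and MA12 rat 7N is the MA12 rat nearest to them for *Mcam*, *Kdr*, *Egfl7*, *Mmp14*, *Abcc9* and *Acta2*.

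*Tgfbr2*, the ligand-binding receptor of transforming growth factor beta (TGF-beta), had levels of 3.33, 3.60, 3.66 and 4.12 in non-addicted rats 9, 11, 12 and 13 and of 4.47, 4.87, 4.70 and 4.49 in MA12 rats 21, 31, 4N and 7N. Non-addicted rat 13 stood above its group but below MA12. The log2FC was -0.94 (SE 0.16, adjusted p = 0.0128, edgeR), with an adjusted p of 0.0503 without non-addicted rat 12. Over 31 genes of TGF-beta and bone morphogenetic protein signalling, 9 were negative and 1 positive at an unadjusted p below 0.05, with a median of -0.12. Among all genes, 6.73% were negative and 5.29% positive at that p. The partner receptor *Tgfbr1* had -0.47 (adjusted p = 0.141) and the receptor *Bmpr1a* -0.33 (0.228), while the signal transducer *Smad3* was the positive one (0.36, 0.126), with 7.11 to 7.44 against 6.95 to 7.05 log2 CPM.

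*Mmp14*, a membrane-anchored metalloproteinase that cuts collagen and activates other proteases, had levels of 2.35, 2.67, 3.13 and 2.44 in non-addicted rats 9, 11, 12 and 13 and of 3.83, 4.19, 4.24 and 3.40 in MA12 rats 21, 31, 4N and 7N. Non-addicted rat 12 and MA12 rat 7N came closest. MA12 was 2.42-fold above (log2FC -1.27, SE 0.21, adjusted p = 0.0128, edgeR), the lowest log2FC of a DEG after *Cym*. At an unadjusted p below 0.05, 6.73% of all genes were negative and 5.29% positive. Of 18 metalloproteinase and inhibitor genes 6 were negative and 0 positive at that p, with a median of -0.25. They included *Mmp28* (-0.86, adjusted p = 0.228) and the aggrecan-cutting *Adamts4* (-0.58, 0.118). Of 21 basement membrane and matrix genes 1 was positive and 6 negative, with a median of -0.17, and the basement membrane gene *Nid2* (-0.72, 0.138) and the collagen-binding integrin *Itga1* (-1.20, 0.17) lay apart between the groups. The 9 fibroblast markers had a median of -0.22 and no DEG.

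Among the other lower DEGs, *Cxcl12*, a chemokine made by endothelial and stromal cells, was 6.25, 6.62, 6.52 and 7.13 in non-addicted rats 9, 11, 12 and 13 and 7.30, 7.31, 7.63 and 7.31 in MA12 rats 21, 31, 4N and 7N (log2FC -0.72, adjusted p = 0.0439, edgeR). Non-addicted rat 13 lay near MA12. *Atp13a5*, a transport ATPase known as a brain pericyte marker, was 2.88 to 3.46 against 3.79 to 4.00 (log2FC -0.76, adjusted p = 0.0436). *Cxcl12* and *Atp13a5* each missed the threshold in 6 of the 8 fits with one rat left out.

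Genes of neurons were also among the DEGs. *Kcns2*, a silent subunit that modifies Kv2 potassium channels, had the smallest p of all genes tested. Its level was 4.26, 3.89, 4.49 and 4.39 in non-addicted rats 9, 11, 12 and 13 and 5.23, 5.15, 5.35 and 5.18 in MA12 rats 21, 31, 4N and 7N. The MA12 rats were tightly grouped above them. The means were 4.26 ± 0.26 and 5.23 ± 0.09 (SD, n = 4 rats each), so MA12 was 1.94-fold above (log2FC -0.95, SE 0.13, adjusted p = 0.00292, edgeR).

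Of 36 voltage-gated potassium channel genes, *Kcns2* was the DEG, and 11 were negative and 2 positive at an unadjusted p below 0.05. Without overlap, 6 lay below and 1 above, and the median was -0.13. Over all genes, 6.73% were negative and 5.29% positive at that p, and 3.48% lay below and 3.03% above without overlap. *Kcnc2*, a fast channel of interneurons, was 2.79 to 3.08 against 3.40 to 4.02 log2 CPM (log2FC -0.75, adjusted p = 0.0735). *Kcnq3*, a subunit of the M current, was 5.43 to 6.28 against 6.35 to 6.61 (-0.59, 0.0758), and the axonal channel *Kcna2* 2.67 to 3.83 against 3.85 to 4.48 (-0.79, 0.0815, edgeR). The last pair of groups almost touched, between non-addicted rat 13 and MA12 rat 7N. *Kcnip2*, an auxiliary subunit of A-type channels, went the other way (3.05 to 3.39 against 2.25 to 2.96, log2FC 0.70, adjusted p = 0.131).

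*Pdyn*, the precursor of the dynorphin peptides made by D1 receptor neurons, was the DEG among 12 striatal projection neuron markers. It had 8.23, 7.83, 8.32 and 8.33 in non-addicted rats 9, 11, 12 and 13 and 8.84, 8.64, 8.90 and 8.99 in MA12 rats 21, 31, 4N and 7N. Non-addicted rat 11 was the lowest of all. The log2FC was -0.65 (SE 0.12, adjusted p = 0.0282, edgeR). It missed the threshold without non-addicted rats 11 or 12 or MA12 rats 21 or 4N (0.0558 to 0.0643) and by its fold without MA12 rat 7N (log2FC -0.58). It also missed with number kind as a covariate (log2FC -0.54, adjusted p = 0.0965) and against only the MA12 rats numbered without N (-0.53, 0.055, edgeR).

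The other projection neuron markers were near 0. The dopamine receptor genes *Drd1* and *Drd2* had log2FC values of -0.01 and 0.02, the adenosine receptor *Adora2a* -0.06, the dopamine signalling protein *Ppp1r1b* -0.00, the enkephalin precursor *Penk* -0.14 and the tachykinin precursor *Tac1* -0.14, with adjusted p values from 0.638 to 0.998 (edgeR). *Ppp1r1b* and *Penk* had 138409 to 170085 and 41286 to 59441 counts per rat, and each library held the defining transcripts of the striatum. *Pde10a*, the phosphodiesterase of these neurons, was 8.44 to 9.04 against 9.18 to 9.48 (log2FC -0.42, adjusted p = 0.145). The list median was -0.04, and that of 29 dopamine and cAMP signalling genes was -0.01 with 1 positive and 4 negative at an unadjusted p below 0.05.

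*Camk1g*, a calcium/calmodulin-dependent kinase of neurons, was higher in the non-addicted rats than in MA12. It was 4.79, 4.71, 4.59 and 4.01 in non-addicted rats 9, 11, 12 and 13 and 3.95, 3.82, 3.64 and 3.72 in MA12 rats 21, 31, 4N and 7N. Non-addicted rat 13 was just above MA12 rat 21, and the log2FC was 0.77 (SE 0.15, adjusted p = 0.0436, edgeR). At an unadjusted p below 0.05, 5.29% of all genes were positive and 6.73% negative, and 3.03% lay above without overlap. Of 14 kinases and related genes of this family, 3 were positive and 0 negative at that p, each without overlap, with a median of 0.04. The other positive ones were *Camkv* (0.29, adjusted p = 0.233) and *Camkk1* (0.22, 0.321).

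*Ltk*, a receptor tyrosine kinase, was 4.68 to 5.24 against 4.03 to 4.53 log2 CPM (log2FC 0.77, SE 0.15, adjusted p = 0.0387, edgeR). *Lpin3*, a phosphatidate phosphatase of lipid synthesis, was 5.22 to 5.68 against 4.52 to 5.20 (0.65, 0.0447), and its lowest non-addicted rat, 13, was nearly level with MA12 rat 7N. *Trank1* was 8.37 to 8.53 against 7.36 to 8.09 (0.64, 0.0436). *Mthfd1l*, a mitochondrial enzyme of folate metabolism, was 4.23 to 4.52 against 3.63 to 3.94 (0.62, 0.0439), and *P4ha2*, a collagen prolyl hydroxylase subunit, 4.55 to 5.03 against 4.08 to 4.37 (0.59, 0.0442). These 5 genes were each called in 2 or 3 of the 8 fits with one rat left out.

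*Cym*, which encodes chymosin, a digestive aspartic protease, had the largest log2FC of a DEG at low counts. There were 3, 1, 0 and 2 counts in non-addicted rats 9, 11, 12 and 13 and 49, 41, 34 and 20 in MA12 rats 21, 31, 4N and 7N. Every MA12 rat was far above each non-addicted rat. A mean count above 4 was required and no non-addicted rat had that many, so *Cym* passed only through MA12. Summed over rats, 6 counts stood against 144, a ratio of counts per library total of 23.2 (95% exact interval 10.4 to 64.2, counting error only). This ratio comes from the same rats as the call and is not separate support for the call. The log2FC was -4.37 (SE 0.65, adjusted p = 0.00599, edgeR).

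Markers of other cell types and of neighbouring regions gave no DEG. Of 12 microglial markers 1 was negative at an unadjusted p below 0.05, the chemokine receptor *Cx3cr1* (log2FC -0.62, adjusted p = 0.0796, edgeR), and the median was -0.08. Of 11 astrocyte markers 1 was positive, the gap junction gene *Gja1* (0.28, 0.229, above MA12 in each non-addicted rat), and 2 were negative, among them the intermediate filament *Gfap* (-0.42, 0.251), with a median of -0.00. The 9 oligodendrocyte markers all had negative values with a median of -0.20, and the 7 precursor markers a median of -0.19, with 3 of each at an unadjusted p below 0.05. The summed oligodendrocyte level overlapped widely, from 12560 to 17638 CPM in the non-addicted and from 13289 to 22089 CPM in the MA12 rats. The 6 cholinergic interneuron markers had a median of 0.04 with none at that p, and 3 blood genes a median of -0.10, with *Hbb* at -0.10.

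Genes of the ventricle lining and of nearby regions overlapped between the groups. The 7 ependymal markers had log2FC values from 0.43 to 0.75 with a median of 0.52, of which *Foxj1*, the master gene of motile cilia, had 0.75 (adjusted p = 0.249). Their summed level was 61.6 to 155 CPM in the non-addicted and 42.2 to 117 CPM in the MA12 rats, and their score was lowest in MA12 rats 4N and 7N and non-addicted rat 13 (-0.95, -0.74 and -0.45). The choroid plexus gene *Ttr* had 329 counts in non-addicted rat 9 and 17 in rat 12, and 0 to 6 in the other 6 rats. The hypothalamic hormone gene *Oxt* had 42 and 32 counts in non-addicted rats 11 and 13 and 8 or fewer elsewhere, and *Avp* had 181 in non-addicted rat 11 and 3 to 17 elsewhere. Median log2FC values were 0.47 over 7 choroid plexus, 0.43 over 6 hypothalamic, 0.06 over 5 thalamic and 0.18 over 3 cortical markers, and -0.36 over 7 markers of other interneurons. The part of tissue outside the striatum in the DEGs was not tested.

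**Figure D4:**
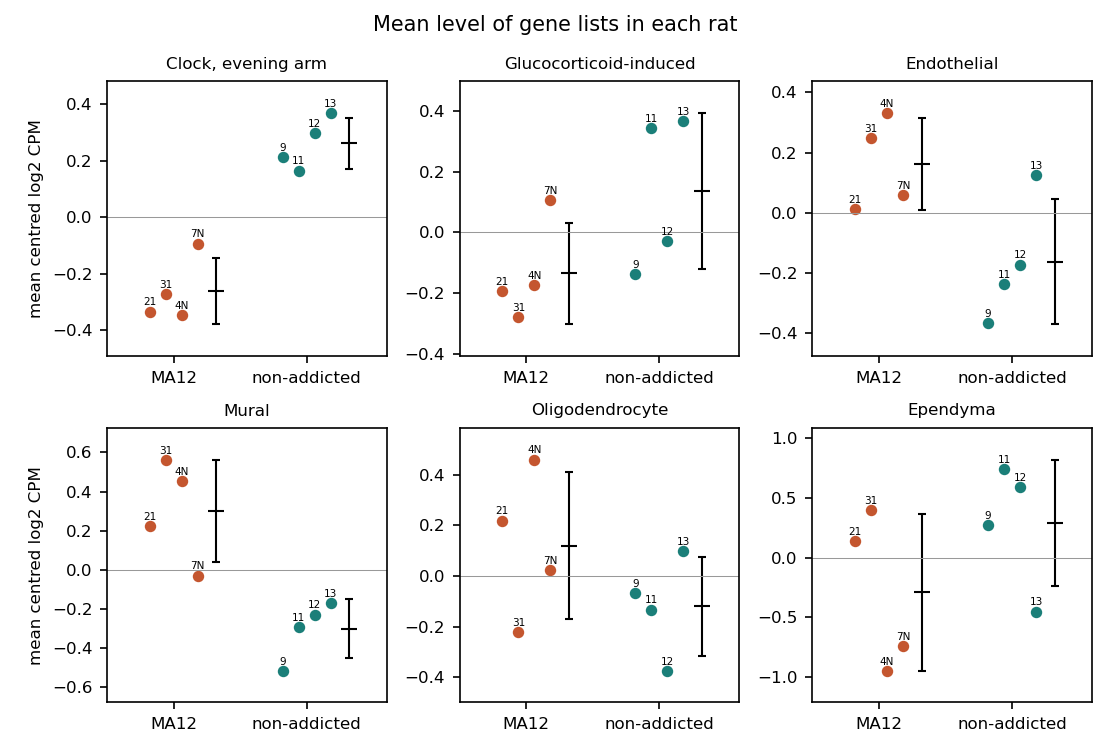
Score of 6 gene lists in each rat, the mean over the list of log2 CPM centred per gene, with MA12 in orange, non-addicted in green, and the mean ± SD beside each group. The evening-arm clock and mural scores lie apart between the groups (0.17 to 0.37 against -0.35 to -0.09, and -0.52 to -0.17 against -0.03 to 0.56), while the other 4 overlap.

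Of 15 genes of the integrated stress and unfolded protein response, 5 were positive and 0 negative at an unadjusted p below 0.05, 3 of them without overlap, with a median of 0.12 and no DEG. *Xbp1*, the factor that switches on folding genes, was 6.86 to 7.36 against 6.39 to 6.73 log2 CPM (log2FC 0.44, adjusted p = 0.114, edgeR), and *Herpud1*, which helps to degrade misfolded proteins, 5.91 to 6.28 against 5.55 to 5.82 (0.38, 0.126). Of 22 heat shock and chaperone genes 7 were positive and 1 negative, with a median of 0.12 and non-addicted rat 11 highest in score (0.37). Of 27 immediate early genes 1 was positive and 2 negative, with a median of -0.05. The positive one was the orphan receptor *Nr4a3*, with 116, 577, 229 and 142 counts in non-addicted rats 9, 11, 12 and 13 and 195, 59, 85 and 95 in MA12 rats 21, 31, 4N and 7N, which overlapped (log2FC 1.34, adjusted p = 0.155).

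Housekeeping lists lay near 0. The median log2FC was 0.01 over 81 cytosolic ribosomal protein genes, 0.00 over 70 oxidative phosphorylation subunits and 0.02 over 38 proteasome subunits, with 2, 0 and 0 genes positive and none negative at an unadjusted p below 0.05. For 24 cholesterol synthesis genes it was -0.09, with 2 negative, for 25 interferon and antigen presentation genes -0.01, with 1 in each direction, and for 16 hypoxia and glycolysis genes 0.04, with *Vegfa* as the 1 positive gene.

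**Figure D5:**
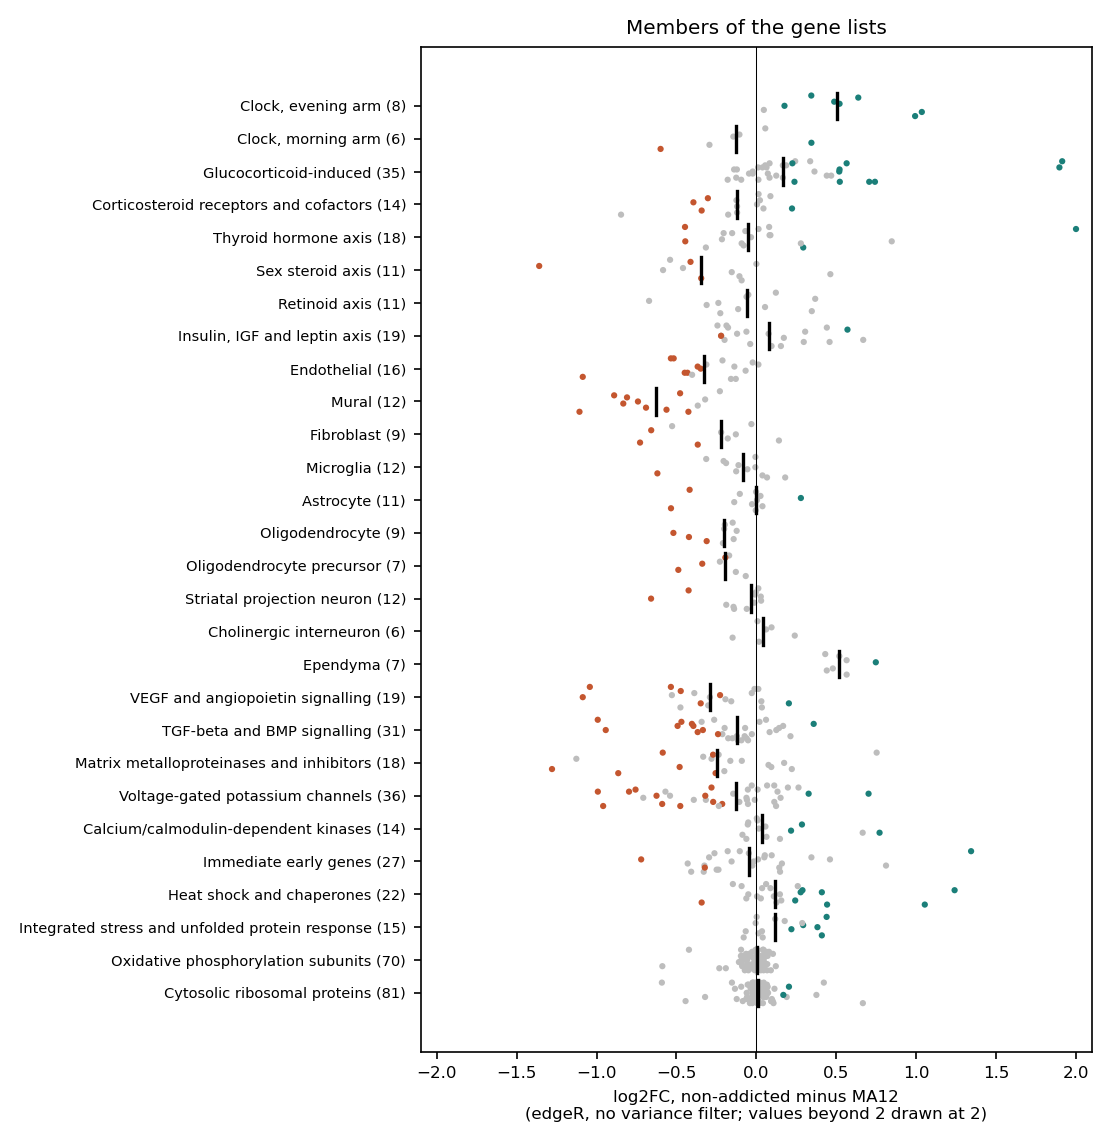
log2FC (non-addicted minus MA12, x axis, edgeR without the variance filter) of the members of 28 gene lists (y axis, number of members in brackets), with green points positive and orange points negative at an unadjusted p below 0.05, grey points the rest, and black bars the medians. The mural list lies lowest with a median of -0.63 and the evening-arm clock and ependymal lists reach 0.50 and 0.52, while the ribosomal and oxidative phosphorylation lists sit at 0.01 and 0.00.

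The MA24 rats give a further reference for these genes, although the comparison of MA24 with MA12 shares the 4 MA12 rats, so its values are set beside the others only. For *Mcam* the log2FC was -0.92 for non-addicted and -0.23 for MA24 against MA12, for *Kdr* -1.08 and -0.23, for *Egfl7* -0.60 and 0.07, and for *Camk1g* 0.77 and -0.02. Tested directly against MA24, the non-addicted rats differed in these 4 genes, with log2FC values of -0.69, -0.85, -0.67 and 0.80 (adjusted p = 0.0241, 0.0354, 0.028 and 0.0387, edgeR). That test reuses the 4 non-addicted rats from which these genes were called, so it is not independent of the first. Over all genes tested, 49 of 10744 were DEGs between non-addicted and MA24. For *Kcns2* the values against MA12 were -0.95 and -1.09, for *Per2* 1.04 and 0.96, for *Ciart* 1.0 and 0.98, for *Arntl* -0.60 and -0.61, and for *Pdyn* -0.65 and -0.57, in the same order. The direct difference between non-addicted and MA24 was 0.14 for *Kcns2*, 0.08 for *Per2*, 0.02 for *Ciart* and -0.08 for *Pdyn*, none past the threshold (adjusted p = 0.697 to 0.968). *Zbtb16* (1.90 and 1.0), *Mmp14* (-1.27 and -0.90) and *Abcc9* (-1.10 and -0.73) had MA24 between the other groups, and their direct differences of 0.90, -0.37 and -0.38 did not pass (adjusted p = 0.209, 0.371 and 0.244). All MA24 rat numbers end in N and no non-addicted number does, so a difference that goes with the number cannot be told apart from the group there.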

How the data were processed

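RNA of the whole striatum of 1 rat per library was captured by poly-A and sequenced as paired-end reads. Per the paper's methods and the submitters' processing notes, the authors removed adapters (Cutadapt 1.18), mapped reads to rn6 (STAR 2.7.0e) and counted them on genes (featureCounts), and the values they deposited are raw counts that were not normalized. The notes also name HTSeq 0.12.4 without its role. How strands and reads with several positions were treated is not given in the sources used here, so overlapping genes and near-identical copies are uncertain. All 12 columns matched a label. The 4 MA24 columns enter only the values set beside the others.

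Groups are the 4 non-addicted and 4 MA12 rats, as labelled. Genes needed a mean count above 4, and of these the 15% that varied least in log2 CPM were dropped, a reading of the filters in the methods. Counts were tested with edgeR 4.0.16 in R 4.3.3 (TMM, glmQLFit, glmQLFTest, Benjamini-Hochberg), which was tested on simulated data. Alternatives were DESeq2 1.42.0, the likelihood ratio test, RLE factors, weaker and stricter filters, a fit of all 3 groups, leaving out each rat, and splits by the kind of rat number. Lists and promoters were handled in Python 3.11.15 with pandas 2.3.3 and scipy 1.17.1.

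The 42 lists (clock, hormone, pathway and cell type) got counts and medians from the fit without the variance filter, and no test. The genes, lists and rules were chosen with earlier results of these data known. Named are all DEGs, up to 4 further members per list with the smallest p, striatal markers, hormone receptors, and 3 genes on each side of the threshold, and some of these are not reported here. *Mt1a* stands for the listed Mt1, and *Slco1a2*, *Figf* and *Tp53inp1* replace older or other symbols. Nothing in the labels says that rats came from separate litters, so p-values measure the spread between these rats. No rn6 reference was used, and promoters are in GRCr8 coordinates.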

Additional observations from a re-analysis of the deposited data

Results flagged for a closer look

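Over 76 groups of 4 rats, for the genes examined, 2 had a rat far from the other 3. The measure was Dixon's ratio of the gap to the range, and chance gives 3.8 such groups. Non-addicted rat 12 had the lowest *Acta2* of its group, 3.07 against 3.35 to 3.38 log2 CPM (ratio 0.891). MA12 rat 4N had the highest *Cxcl12* of its group, 7.63 against 7.30 to 7.31 log2 CPM (ratio 0.96). Without non-addicted rat 12, *Acta2* had a log2FC of -0.74 (adjusted p = 0.139), and without MA12 rat 4N, *Cxcl12* had -0.63 (adjusted p = 0.107, edgeR quasi-likelihood test), so both calls were lost.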

How the results depend on the processing

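The DEG count in non-addicted vs. MA12 was 27. It was 72 with DESeq2 and 89 with the likelihood ratio test, which both included all 27, and 24 with RLE factors. It was 12 with no filter, 5 when the variance filter was dropped, 4 when each library needed 10 counts, 16 with all 3 groups in the fit, 63 with only the MA12 rats numbered without N, 130 with only those numbered with N and 10 with the kind of number as a covariate. With one rat left out it ranged from 8 to 93. The cause was not tested. No single gene reversed in 485 results. Of 504 list medians, 16 moved beyond the spread between rats, and 2 of these changed sign, the retinoid axis (0.05) and cholesterol synthesis (0.04), both with only the MA12 rats numbered without N. No paired analysis was possible because the groups share no rat number. Depth limits genes with few counts, such as *Cym*, *Ttr* and *Hif3a*.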

Other observations

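Other named genes at the edge of the threshold were not on any list. *St8sia3*, a sialyltransferase of neurons, had an adjusted p of 0.0436 but an FC under 1.5 (log2FC -0.58, edgeR quasi-likelihood test), with 5.41, 5.66, 5.92 and 5.80 log2 CPM in non-addicted rats 9, 11, 12 and 13 and 6.48, 6.16, 6.37 and 6.13 in MA12 rats 21, 31, 4N and 7N. *Megf10*, a phagocytic receptor of astrocytes, had 3.88 to 4.62 against 4.83 to 5.19 (log2FC -0.67, adjusted p = 0.0513). *Serinc5*, a membrane protein, had 6.62 to 7.08 against 7.18 to 7.68 (-0.60, 0.0513), and *Rffl*, a ubiquitin ligase, 4.69 to 5.07 against 5.25 to 5.49 (-0.52, 0.0504). For all 4 genes the non-addicted rats lay below the MA12 rats.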
